A study of Rattus norvegicus with 47 samples.

Results

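The Toll-like receptor genes Tlr2, Tlr4, Tlr5, Tlr7, Tlr8 and Tlr9 and the coreceptor genes Cd14, Ly96, Ly86 and Cd180 were looked up in rat blood after a stroke. These 10 genes are a list of names, with no threshold on their values. A row of the deposited table counted as a member when its gene symbol, split where several share a row, equalled the name. Of the 10 genes 7 were found by symbol, out of 20935 genes named in the whole table, and each had 1 probe set. They were Tlr2, Tlr4, Tlr5, Tlr7, Cd14, Ly86 and Cd180. No row carried the symbol Tlr8, Tlr9 or Ly96, so Tlr8 and Ly96 were not analysed here. A probe set without a symbol, which a gene list of the study names Tlr9, is given beside the 7 members and kept out of their counts. That list was drawn up from genes that changed in these arrays, so the change of Tlr9 is no independent finding.

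The blood came from 8 male spontaneously hypertensive rats (SHR), a strain with inherited high blood pressure, all 16 weeks old. In each rat the middle cerebral artery was blocked with a coated thread under isoflurane, and the thread was withdrawn between the samples of 1 h and 2 h, so that the stroke was transient. Blood was taken at 0 h, before anesthesia, and at 1, 2, 3, 6 and 24 h after occlusion, which gave 8 arrays per time point and 7 at 6 h, 47 in all. Every rat had the occlusion and there was no sham group, so that the effects of stroke, anesthesia, surgery, repeated bleeding and time of day cannot be told apart. Samples up to 6 h were drawn from the tail vein and the 24 h sample by heart puncture after an anesthetic overdose, so that time and sampling site also cannot be told apart at 24 h.

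Toll-like receptors recognise microbial molecules and molecules released by damaged cells. Those on the cell surface bind mainly proteins and lipids. Tlr2 pairs with Tlr1 or Tlr6 to bind lipopeptides, Tlr4 binds lipopolysaccharide together with MD-2, the product of Ly96, and Tlr5 binds flagellin. Among those in endosomes, Tlr7 and Tlr8 bind single-stranded RNA and Tlr9 binds CpG DNA. CD14 collects lipopolysaccharide and passes it to Tlr4 and MD-2. Cd180, also called RP105, resembles Tlr4 on the outside of the cell but lacks the signalling domain, and it is carried to the surface by MD-1, the product of Ly86. In blood, Tlr2, Tlr4, Tlr5 and Cd14 are known from neutrophils and monocytes, and Cd180 from B cells and also from monocytes and dendritic cells.

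Promoter sequences were available from RefSeq on the build GRCr8 for 7 of the 8 genes looked for, Ly86 being the exception. Each runs from 250 bases before the start site to 50 bases after it, on the gene's own strand, 5′ to 3′. Those of Tlr2 and Tlr5, the receptors that had risen by 1 h, and of Cd180, the member with the largest fall, are shown so that genes moving in opposite directions can be read side by side. They lie at chr2:171504508-171504807 on the minus strand, chr13:97182910-97183209 on the plus strand and chr2:35589680-35589979 on the plus strand. Capitals mark a match to any of 5 motifs searched on both strands.
Tlr2: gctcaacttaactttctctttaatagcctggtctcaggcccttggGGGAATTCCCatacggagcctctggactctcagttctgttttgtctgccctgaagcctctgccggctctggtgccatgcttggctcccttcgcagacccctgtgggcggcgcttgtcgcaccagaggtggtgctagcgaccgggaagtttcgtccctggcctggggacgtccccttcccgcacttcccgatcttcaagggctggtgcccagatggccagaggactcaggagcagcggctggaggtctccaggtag
Tlr5: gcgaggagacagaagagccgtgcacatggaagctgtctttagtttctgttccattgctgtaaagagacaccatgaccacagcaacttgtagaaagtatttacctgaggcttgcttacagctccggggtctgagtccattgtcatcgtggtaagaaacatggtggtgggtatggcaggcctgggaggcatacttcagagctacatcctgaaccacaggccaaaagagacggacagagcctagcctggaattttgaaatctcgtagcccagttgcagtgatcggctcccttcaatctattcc
Cd180: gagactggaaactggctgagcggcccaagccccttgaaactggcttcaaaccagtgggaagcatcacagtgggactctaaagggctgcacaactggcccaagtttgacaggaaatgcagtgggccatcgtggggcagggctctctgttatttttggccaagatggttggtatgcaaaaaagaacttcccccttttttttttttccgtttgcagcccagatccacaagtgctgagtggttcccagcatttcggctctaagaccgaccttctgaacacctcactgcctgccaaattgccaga

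The motifs were GAGGAAGT for PU.1, the NF-kB consensus (by name), TTGCNNAA for C/EBP, TGANTCA for AP-1 and the octamer ATTTGCAT. They were found in 2.42%, 1.11%, 10.6%, 7.33% and 1.78% of 33469 promoter windows of the same length. The Tlr2 window held 1 NF-kB match, which starts at position -205 from the start site, and the windows of Tlr5 and Cd180 held none of these letter patterns. Among the windows not shown, that of Tlr7 had a C/EBP match at position -138, that of Tlr9 an octamer match at -79 and an AP-1 match at -65, and those of Tlr4 and Cd14 had no match. A match is a run of letters and not a measured binding site, and nothing in the arrays bears on binding.

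Signal is given as the log2 RMA value of a probe set, a normalised brightness, on which each unit is a factor of 2. The authors' mean and SD of each time point were used, as single arrays could not be tied to a rat. Values of single animals are therefore not given, nor how many rats moved in a direction. A change was called when its false discovery rate (FDR), the Benjamini-Hochberg adjusted p of a moderated test over all 27596 probe sets, was below 0.05. The test treats the arrays as independent although the same rats were bled at every time point. Over the 6 time points the median signal of all probe sets lay between 6.61 and 6.66, and the number of arrays limits the precision of each mean. Signals of blood markers at 0 h spread widely in a table that reaches 13.62, from 13.39 for the erythroid gene Alas2 and 13.06 for the platelet gene Pf4 down to 5.86 for the neutrophil gene Ltf and 5.69 for the monocyte gene Cd163. Levels of different probe sets are not comparable, and these values say only what the table holds.

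Each of the 7 members varied over the time course by the F-test (FDR below 0.05), where 55.5% of all probe sets did. At the threshold p below 5e-07, which 13.5% of all probe sets (3717) passed by this F-test, 6 of the 7 did, all but Tlr4. The p of Tlr7 was 2.37e-07. The paper set the same cut-off on its own F-test, which fewer genes passed, so a pass here need not be a pass there. Ranked by the p of this F-test among the 27596 probe sets, Tlr5 stood 49, Tlr2 181, Cd14 337, Cd180 411, Ly86 561, Tlr7 3445 and Tlr4 6856. The paper, by its own F-test, ranks Tlr2, Cd14 and Ly86 further down. Against 0 h, 5 members were called at 1 h, when 37.1% of all probe sets were. The counts at the later times, 2, 3, 6 and 24 h, were 6, 5, 6 and 4, beside 40.4%, 46.5%, 41.8% and 31.2% of all probe sets. The members did not move together. Tlr2, Tlr5 and Cd14 rose, Cd180 and Ly86 fell, and the changes of Tlr4 lay between -0.34 and 0.06 and those of Tlr7 between -0.44 and 0.38.

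By direction, 2 members were higher at 1 h (Tlr2 and Tlr5) and 3 lower (Tlr4, Ly86 and Cd180), where 21.7% and 15.4% of all probe sets were. The 2 h samples had 4 higher (Tlr2, Tlr5, Tlr7 and Cd14) and 2 lower (Ly86 and Cd180), where 21.7% and 18.6% of all probe sets were. The 3 h samples had 3 higher and 2 lower (27.3% and 19.2%), and the 6 h samples 3 higher and 3 lower (22.5% and 19.3%). By the moderated test 0 members were higher at 24 h and 4 lower, Tlr4, Tlr7, Ly86 and Cd180 (17.4% and 13.9%). At an unadjusted p below 0.05, 1 member, Tlr2, was higher at 24 h, as were 24.5% of all probe sets.

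**Figure D1:**
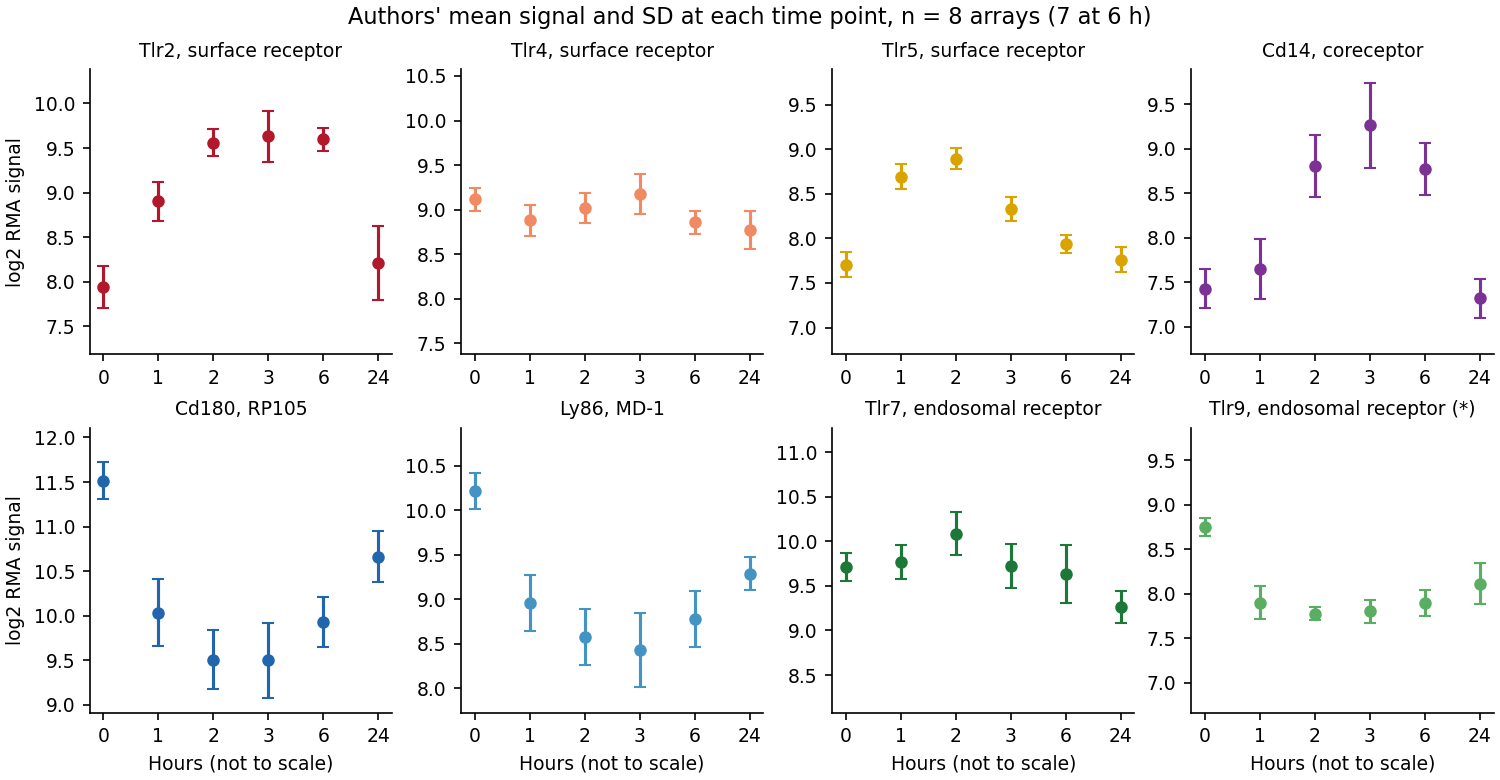
Authors' mean log2 RMA signal (y axis, the same span of 3.2 in each panel) of 8 genes at 6 time points (x axis, hours, not to scale), with bars for the authors' SD over 8 arrays, or 7 at 6 h. Tlr2, Tlr5 and Cd14 rise and return, Cd180, Ly86 and Tlr9 fall and stay below their 0 h signal, and Tlr4 and Tlr7 move little. The asterisk marks Tlr9, whose probe set was found outside the rule.

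Tlr2 was higher from 1 h to 6 h and fell again before 24 h. Its probe set spans, in the table's annotation on the build rn5, which is used for all probe sets here, chr2:202253255-202258683 (minus strand). Its mean signal was 7.94 ± 0.23 (authors' SD, n = 8) at 0 h. In time order, the later means were 8.90 ± 0.22 (1 h), 9.56 ± 0.15 (2 h), 9.63 ± 0.28 (3 h), 9.60 ± 0.13 (6 h, n = 7) and 8.21 ± 0.41 (24 h). The means of 1 to 6 h lay above the 0 h mean by more than the SDs, and the steps from 2 to 3 h and from 3 to 6 h were not called. The change was 0.97 at 1 h (95% interval 0.72 to 1.21, FDR 3.1e-08) and 1.69 at 3 h, a 3.23-fold rise (1.44 to 1.94, FDR 8.35e-16). Between 6 and 24 h Tlr2 fell by 1.39 (FDR 4.8e-12). At 24 h it stood 0.27 above 0 h (0.02 to 0.52), which did not pass the FDR at 0.0913 and did pass it, at 0.0318, after quantile normalization of the means. The SD at 24 h was the highest of the 6.

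Tlr5 was called higher from 1 h to 6 h, and its falls from 2 to 3 h and from 3 to 6 h were called. Its signal, at chr13:106303279-106314530 (plus strand), was 7.71 ± 0.14 before the stroke and 8.69 ± 0.14 after 1 h. It reached 8.89 ± 0.12 at 2 h and then stood at 8.33 ± 0.14, 7.94 ± 0.10 and 7.76 ± 0.14 at 3, 6 and 24 h. The largest rise, 1.19 at 2 h or 2.28-fold (1.06 to 1.32, FDR 1.15e-19), was 8.39 times its highest SD, the largest such ratio of the members. Tlr5 fell by 0.56 from 2 to 3 h (FDR 6.58e-08) and by 0.39 from 3 to 6 h (FDR 0.000195), while Tlr2 changed by 0.07 and -0.03 in those steps, neither called. At 1 h the intervals of Tlr5 (0.86 to 1.12) and Tlr2 overlapped. From 2 to 6 h they did not, with 1.06 to 1.32 for Tlr5 against 1.37 to 1.87 for Tlr2 at 2 h, 0.49 to 0.76 for Tlr5 against 1.44 to 1.94 for Tlr2 at 3 h, and 0.10 to 0.37 against 1.40 to 1.92 at 6 h. The difference between genes itself was not tested, as it needs their covariance over single arrays. At 24 h, 4.92% of the largest change of Tlr5 was left and 15.9% of that of Tlr2. Neither change at 24 h was called, and their intervals overlapped, -0.07 to 0.19 for Tlr5 and 0.02 to 0.52 for Tlr2. The difference between the shares was not tested. The share of Tlr5 moves with the scaling, to 1.49% after median centring and 9.64% after quantile normalization, and stayed below that of Tlr2 in both.

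Tlr4, the lipopolysaccharide receptor, did not rise at any time point by this test. Its signal, at chr5:86690666-86704302 (plus strand), was 9.11 ± 0.13, 8.88 ± 0.18, 9.02 ± 0.17, 9.18 ± 0.22, 8.86 ± 0.13 and 8.78 ± 0.21 from 0 to 24 h in time order. The means spanned 0.40 in all, 1.80 times its highest SD. Changes of -0.23 at 1 h (FDR 0.0318), -0.26 at 6 h (FDR 0.0191) and -0.34 at 24 h (FDR 0.00277) were called, and those of -0.10 at 2 h and 0.06 at 3 h were not. The interval at 3 h, -0.11 to 0.24, leaves out a rise of the size seen in Tlr2. The falls at 1 and 6 h were not called after quantile normalization, at -0.16 and -0.17.

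Cd14, which hands lipopolysaccharide to Tlr4, was first called at 2 h and rose most of all members. Its signal, at chr18:29265346-29267084 (minus strand), was 7.43 ± 0.22 before the stroke and 7.65 ± 0.33 after 1 h. From 2 to 24 h it was 8.80 ± 0.34, 9.26 ± 0.48, 8.77 ± 0.29 and 7.32 ± 0.22 in time order. At 1 h the change of 0.22 (-0.09 to 0.53) was not called (FDR 0.266), and its interval lay below those of Tlr2 and Tlr5. The step from 1 to 2 h, 1.16 (0.84 to 1.47, FDR 8.92e-07), was the largest of any member in the 3 steps between 1 and 6 h. The largest rise was 1.84 at 3 h, 3.57-fold (1.52 to 2.15, FDR 1.04e-13). Cd14 fell by 1.45 from 6 to 24 h (FDR 8.7e-10) and ended at -0.11 from its starting signal (-0.42 to 0.20, FDR 0.621).

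Cd180 and Ly86, the 2 chains of the RP105 and MD-1 complex, were called lower than at 0 h at every later time point. Cd180, at chr2:51959085-51971355 (plus strand), had a mean signal of 11.52 ± 0.21 at 0 h, followed in time order by 10.03 ± 0.38, 9.51 ± 0.33, 9.50 ± 0.42, 9.93 ± 0.28 and 10.66 ± 0.29. Ly86, at chr17:30008092-30080777 (minus strand), had 10.22 ± 0.20, 8.96 ± 0.31, 8.57 ± 0.31, 8.43 ± 0.41, 8.77 ± 0.31 and 9.29 ± 0.19 at the same times. No mean after 0 h came within an SD of the 0 h mean in either gene. At 3 h Cd180 had changed by -2.02 (-2.33 to -1.70), 4.04-fold lower with an FDR of 4.36e-15, and Ly86 by -1.78 (-2.07 to -1.50), 3.45-fold lower with an FDR of 1.67e-14. Their intervals overlapped at each of the 5 later time points.

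Both genes were still called lower at 24 h, when Tlr2, Tlr5 and Cd14 were not called. Cd180 stood at -0.85 (-1.17 to -0.54, FDR 3.94e-05), 42.3% of its largest change, and Ly86 at -0.93 (-1.22 to -0.64, FDR 2.49e-06), 52.1%. Most of the fall was present at 1 h, when the thread was still in place, with -1.48 for Cd180 and -1.26 for Ly86. Cd14 and Cd180 thus moved in opposite directions at 2, 3 and 6 h, each past its own test, and from 6 to 24 h each moved back, Cd14 by -1.45, Cd180 by 0.74 (FDR 0.0005) and Ly86 by 0.51 (FDR 0.00941).

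**Figure D2:**
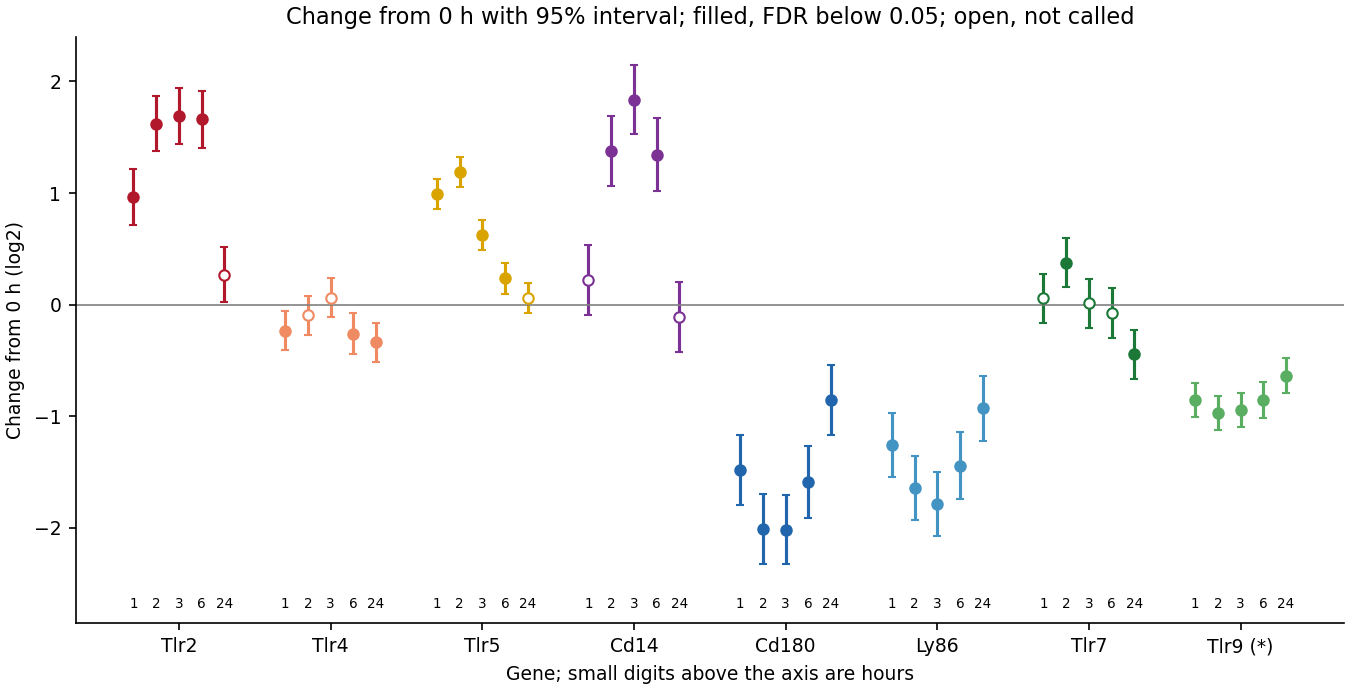
Change from 0 h (y axis, log2) of the 7 members and Tlr9 at 1, 2, 3, 6 and 24 h (x axis, left to right within a gene), with 95% intervals of the moderated test. Filled points passed an FDR of 0.05 and open points did not. Cd14 at 1 h lies near 0 while Tlr2 and Tlr5 are close to 1, and all points of Cd180, Ly86 and Tlr9 lie below 0.

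Tlr7, the endosomal receptor for single-stranded RNA, was higher at 2 h and lower at 24 h. Its signal, at chrX:28905005-28908154 (plus strand), was 9.71 ± 0.16 at 0 h, with later means of 9.77 ± 0.19, 10.09 ± 0.24, 9.72 ± 0.25, 9.63 ± 0.32 and 9.26 ± 0.18 in time order. The rise at 2 h was 0.38 (0.16 to 0.60, FDR 0.0049) and the fall at 24 h 0.44 in size (-0.66 to -0.23, FDR 0.00169). The changes at 1, 3 and 6 h, 0.06, 0.01 and -0.07, were not called. The fall from 2 to 3 h, -0.37, had an FDR of 0.0472 and was not called with unmoderated variances or without the 24 h samples.

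Tlr9, the receptor for CpG DNA, was lower throughout. Its probe set gave 8.75 ± 0.10 at 0 h and then 7.90 ± 0.18, 7.78 ± 0.08, 7.80 ± 0.13, 7.89 ± 0.15 and 8.11 ± 0.23 in time order. It was called lower at all 5 later times, with changes of -0.97 (-1.12 to -0.82) at 2 h and -0.63 (-0.79 to -0.48) at 24 h, when 65.4% of its largest change was left. The intervals of Tlr7 and Tlr9 overlapped at none of 1, 2, 3 and 6 h, and did at 24 h.

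Between neighbouring times, 4 members moved from 1 to 2 h, when 8.78% of all probe sets were called. Tlr2, Tlr5 and Cd14 rose (4.66% of probe sets were called higher) and Cd180 fell (4.11% lower). The step of Tlr5 was small, 0.20 with an FDR of 0.0477, and was not called with a trended robust prior. From 2 to 3 h Tlr5 and Tlr7 fell (3.53% called, 1.9% higher and 1.62% lower), and from 3 to 6 h Tlr4 and Tlr5 fell (4.78% called, 2.34% higher and 2.44% lower). The fall of Tlr4 in that step was 0.32 in size (FDR 0.0279). From 6 to 24 h 5 members moved (18.9%), with Ly86 and Cd180 higher (10.2%) and Tlr2, Tlr7 and Cd14 lower (8.68%). The last step also holds the change from tail vein to heart blood.

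The blood cell markers moved as well, and their part in the changes of the members was not tested. In bulk blood, fewer cells of a type and less RNA per cell cannot be told apart. Of 15 neutrophil markers 14 were called higher at 1 h, where 21.7% of all probe sets were. The later counts were 13, 13, 13 and 9, beside 21.7%, 27.3%, 22.5% and 17.4% of all probe sets. Ngp was lower at 24 h. The median changes of the neutrophil markers were 0.81, 1.31, 1.24, 1.29 and 0.38, where the median of all probe sets was between 0.04 and 0.07. Their largest changes were 2.81 for Lcn2, an iron-binding granule protein, at 6 h and 2.80 for Fpr1, the formyl peptide receptor, at 2 h. Tlr2 lay above this median from 1 to 6 h and below it at 24 h, Tlr5 above it at 1 h and below it from 2 h on, and Cd14 below it at 1 h and at 24 h and above it in between.

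Of 12 monocyte markers 7 were lower and 1 higher at 1 h, where 15.4% and 21.7% of all probe sets were. At 3 h 6 were lower and 5 higher, where 19.2% and 27.3% of all probe sets were. At 24 h 5 of the markers were lower, beside 13.9% of all probe sets, and 7 were not called. Their medians were -0.34, -0.20, -0.16, -0.26 and -0.14. The genes with the largest changes were Adgre1, an adhesion receptor of macrophages and monocytes, with -1.90 (6 h) and the fractalkine receptor Cx3cr1 with -1.45 (3 h). Others rose at 3 h beside Cd14 and Tlr2, among them the lectins Clec10a by 1.40 and Mrc1 by 1.35. Both were chosen after their values were seen, and their part in the changes of Cd14 and Tlr2 was not tested. The changes of Tlr4 at the same times were -0.23, -0.10, 0.06, -0.26 and -0.34.

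Of all probe sets 15.4%, 18.6%, 19.2%, 19.3% and 13.9% were called lower at the 5 later times in time order. Of 12 B cell markers 11, 12, 11, 11 and 9 were lower at the 5 times and the rest were not called. Their median changes were -1.48, -2.00, -2.05, -1.62 and -0.49, and the largest were -2.56 for Ms4a1 (CD20) at 2 h and -2.49 for the B cell factor Ebf1 at 2 h. Cd180 differed from this median by at most 0.0347 at 1, 2, 3 and 6 h and was below it at 24 h, -0.85 against -0.49. This closeness was not tested. At 2 h the single markers ran from -2.56 to -0.18, and the Cd180 change had a standard error of 0.155. Cd79a, Cd79b, Ms4a1, Ebf1 and Fcmr are also among the paper's most time-responsive genes, so the median is not independent of these data. Ly86 was above the B cell median at 1, 2, 3 and 6 h and below it at 24 h. Plasmacytoid dendritic cells are known for Tlr7 and Tlr9. Of 8 of their markers 5, 6, 5, 6 and 6 were lower at the 5 times, beside the shares of all probe sets given above. The medians of these markers were -0.53, -0.53, -0.52, -0.49 and -0.30. At 2 h 1 was higher, Tcf4, a defining factor of these cells, with 0.35. Their largest changes were -1.17 for Spib and -1.07 for Irf8, both at 2 h and both also active in B cells. At 2 h the change of Tlr9, -0.97, lay between the B cell median of -2.00 and the plasmacytoid median of -0.53. Which cells carried the signals of Tlr7 and Tlr9 was not tested.

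T cell markers fell in 10, 10, 11, 11 and 11 of 11 genes at the 5 times, beside 15.4%, 18.6%, 19.2%, 19.3% and 13.9% of all probe sets. Il7r was higher at 1 h. The medians of the T cell markers were -0.54, -0.91, -1.02, -1.14 and -0.75. Their largest changes were -1.45 for Cd28 and -1.39 for Cd8b, both at 6 h. Platelet and erythroid markers, 6 genes each in the table, moved less, with medians from 0.06 to 0.28 and from -0.16 to 0.31. The largest were 0.49 for Itga2b and 0.37 for Treml1 among platelet genes and 0.58 for Slc4a1 and 0.47 for Rhag among erythroid genes, all at 24 h.

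**Figure D3:**
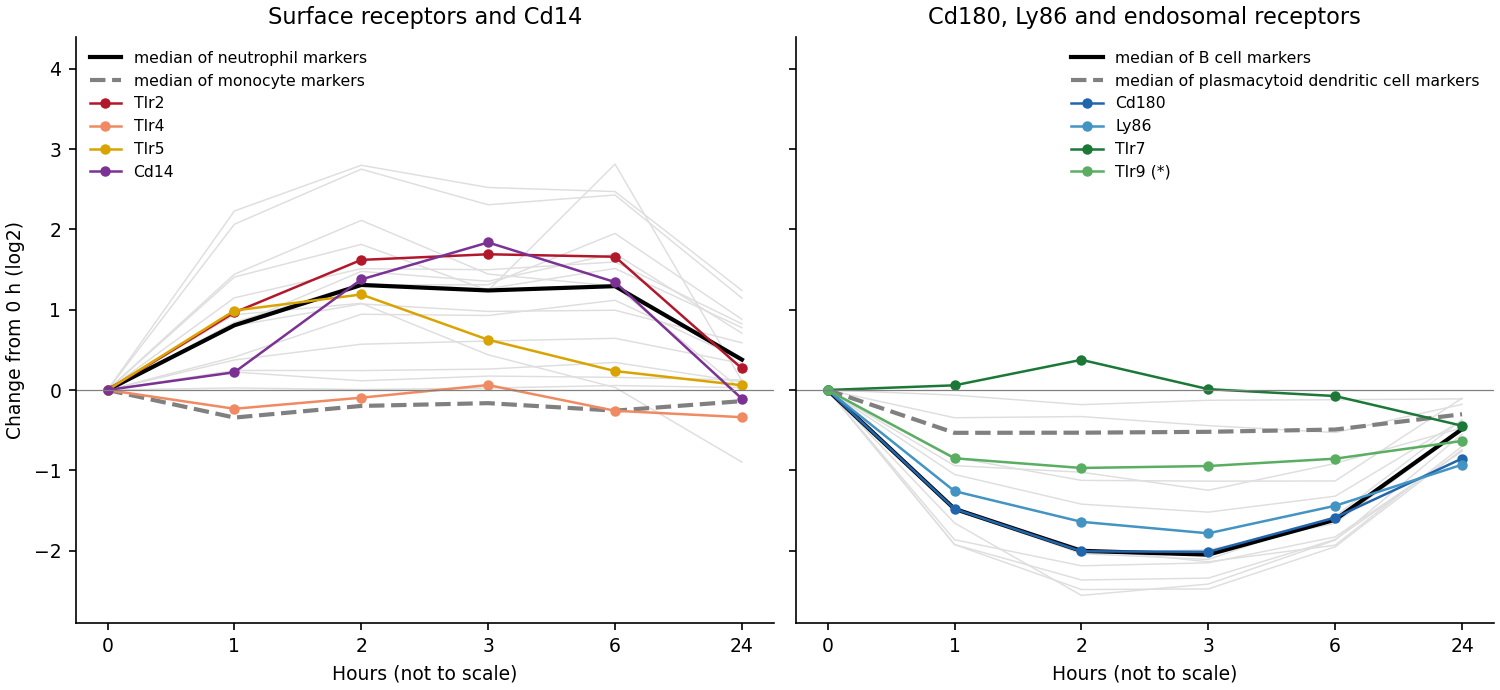
Change from 0 h (y axis, log2) at each time point (x axis, hours, not to scale) of the surface receptors and Cd14 with neutrophil and monocyte markers on the left, and of Cd180, Ly86, Tlr7 and Tlr9 with B cell and plasmacytoid dendritic cell markers on the right. Thick lines are medians of the marker lists and thin grey lines the single neutrophil or B cell markers. The Cd180 line runs along the B cell median up to 6 h, and the Tlr5 line leaves the neutrophil median after 2 h.

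The genes with the most similar course were found by the root mean square difference of the 5 changes, over all probe sets with a single symbol. For Tlr2 they were Slc28a2, a nucleoside transporter, at 0.12 and, by a second probe set, 0.14, and Fam84b at 0.13. For Tlr5 they were the lipase Pnpla2 at 0.10, Syt17 at 0.12 and the AP-1 repressor Jdp2 at 0.12. Cd14 had no close neighbour, with Fam84b at 0.22, the cytokine inhibitor Socs3 at 0.22 and the receptor Trem1 at 0.32. Ly86 was nearest to Blnk, a B cell signalling adaptor, at 0.09, then Gngt2 and LOC100361706, both at 0.11. Cd180 was nearest to Pde6h and Nrp1, both at 0.14. Tlr7 was nearest to the interferon genes Irf9 at 0.07 and Znfx1 at 0.09, with Bak1 at 0.08 between them. Tlr4 had 30 probe sets and Tlr9 28 within 0.10, so that their neighbours are not singled out by this measure. Those of Tlr4 were Bhlhe41, Psmd3 and Gamt, and those of Tlr9 Otulin, Prkag2 and Casc4.

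The other genes of the pathway were listed by role, 56 genes of which 55 were in the table, on 54 probe sets. Tnfaip3 had no matching row and Tlr1 shares its probe set with Tlr10. Of the 54 probe sets 46 varied by the F-test (55.5% of all did). At the 5 later times 10, 16, 18, 16 and 9 of them were higher, beside 21.7%, 21.7%, 27.3%, 22.5% and 17.4% of all probe sets. In the same order 16, 15, 15, 16 and 19 were lower, beside 15.4%, 18.6%, 19.2%, 19.3% and 13.9%. The medians of their changes, 0.02, 0.02, -0.00, 0.01 and -0.05, lay beside 0.05, 0.05, 0.07, 0.05 and 0.04 for all probe sets.

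Among the other receptors, the partners of Tlr2 also rose. Tlr6 went from 8.02 at 0 h to 9.81 at 6 h, a change of 1.79 (FDR 5.16e-17), and the shared probe set of Tlr1 and Tlr10 changed by 0.56, 1.02, 1.35, 1.50 and 0.43, all called. Tlr3, the endosomal receptor for double-stranded RNA, was lower at 2 h (-0.41) and at 24 h (-0.43) and not called between them. Tlr13, an endosomal receptor for bacterial RNA, rose by 0.27 at 3 h and 0.34 at 6 h. Tlr12 had 0.16 at 3 h and was not called at other times, and Tlr11 was not called at any. The largest changes of the surface receptors were thus 1.79 for Tlr6, 1.69 for Tlr2, 1.50 for Tlr1 and Tlr10, 1.19 for Tlr5 and -0.34 for Tlr4. Those of the endosomal receptors were -0.97 for Tlr9, -0.44 for Tlr7, -0.43 for Tlr3, 0.34 for Tlr13, 0.16 for Tlr12 and 0.09 for Tlr11. No test compared the 2 classes, whose members are not replicates.

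Of 6 adaptors, Myd88, which serves all Toll-like receptors except Tlr3, was not called at 1 h (-0.01) and rose by 0.65 at 2 h and 0.93 at 6 h (FDR 7.78e-15). The largest fall was that of Pik3ap1, -0.61 at 1 h. Among 16 kinases and ubiquitin ligases the largest rise was 0.82 for Irak4, the first kinase recruited by Myd88, at 3 h, and the largest fall -0.70 for Traf3, a ubiquitin ligase of the interferon branch, at 2 h. At 3 h, 4 of the 16 were higher and 6 lower, where 27.3% and 19.2% of all probe sets were. Of 6 inhibitors, 1 was higher and 3 lower at 3 and 6 h, where 27.3% and 19.2% (3 h) and 22.5% and 19.3% (6 h) of all probe sets were. The falls were led by Il1rl1, the interleukin 33 receptor, with -1.28 at 6 h, while Cyld rose by 0.36 at 6 h.

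Of 5 transcription factors 3 were lower at each of the 5 later times, Nfkb1, Irf3 and Irf5, where 15.4%, 18.6%, 19.2%, 19.3% and 13.9% of all probe sets were in time order. The largest fall was that of Irf5, -0.95 at 1 h, and the largest rise that of Rela, 0.31 at 6 h. Among 12 genes of folding, transport, processing and delivery, Lbp, which carries lipopolysaccharide to CD14, rose by 1.02 at 1 h and 1.81 at 6 h (FDR 2.36e-19). The largest fall was that of Lgmn, a protease that trims endosomal receptors, -0.74 at 2 h. Unc93b1, which escorts Tlr7 and Tlr9 to endosomes, had changes of -0.26 (1 h), -0.32 (6 h) and -0.55 (24 h, FDR 3.92e-06), and was not called in between at 2 and 3 h. Of the 3 endogenous ligands, S100a8 and S100a9 rose by 1.70 and 1.51 at 6 h and Hmgb1 fell by 0.23 at 24 h. S100a8 and S100a9 are abundant neutrophil proteins and are also in the neutrophil list.

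**Figure D4:**
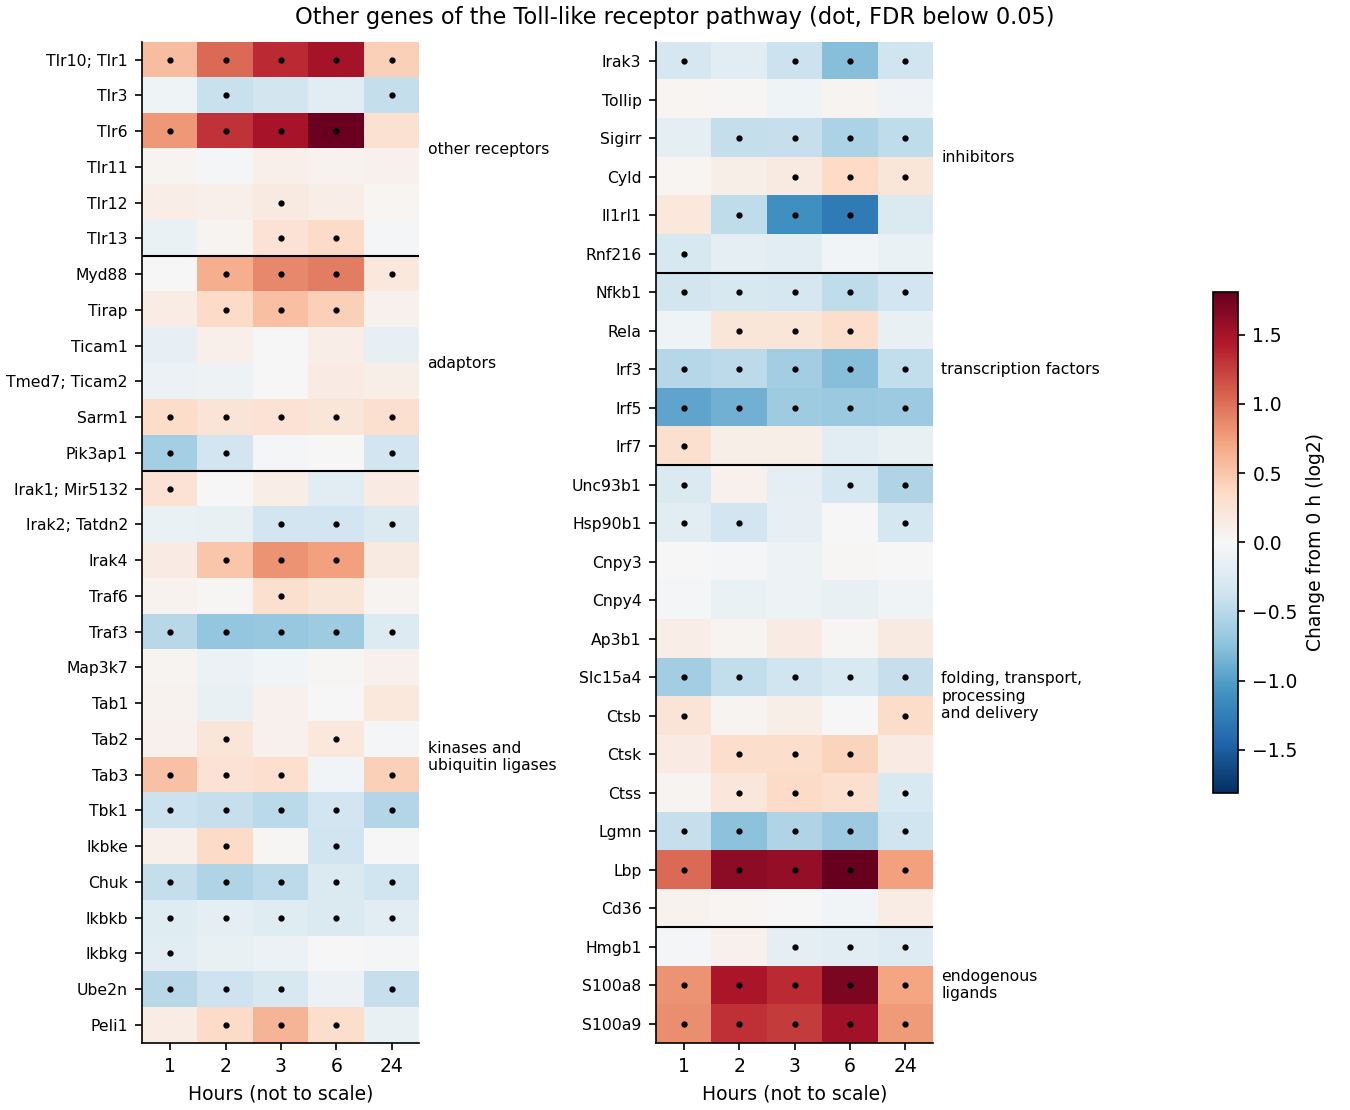
Change from 0 h (colour, log2, red higher and blue lower) of the 54 probe sets of other pathway genes (rows, grouped by role) at 5 later time points (columns, hours, not to scale), with a dot where the FDR was below 0.05. The strongest reds are Tlr6, Tlr10 and Tlr1, Lbp, S100a8 and S100a9, and the strongest blues are Il1rl1 and Irf5.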

How the data were processed

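Blood RNA of 8 SHR rats was measured on 47 Affymetrix RaGene 1.0 ST arrays after amplification of RNA from the cell pellet. The authors deposited 1 table with, for 27596 probe sets, the mean and SD of the log2 RMA values of each time point, named here the authors' mean and SD. Its annotation is on rn5 and names 21406 probe sets. Linear models in limma are named in the submitters' notes. RNA was worked up in randomised batches, which the columns do not identify. The table also holds the authors' fold changes, p-values, FDRs and F-tests, which were not used, and 47 columns of single arrays whose names match no sample label, which were not used either.

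Changes are differences of the authors' means. The planned model on single arrays was therefore replaced by the same moderated test computed from the deposited means, SDs and numbers of arrays, with the variance pooled within time points (41 degrees of freedom) and squeezed across probe sets with limma 3.58.1 in R 4.3.3 (5.71 prior degrees of freedom). P-values were adjusted by Benjamini-Hochberg over all probe sets. The test was checked on simulated data. Arrays are taken as independent, although each rat was bled repeatedly, so rat-to-rat differences stay in the error. The members and lists were chosen with earlier results of these data known. Named genes are the members, the largest rise and fall of each pathway list with Tlr1, Tlr6, Myd88 and Unc93b1, the 2 largest changes of each marker list, and the 3 nearest profiles of each member, of which 1 is not reported here. Values of other genes in the text were picked after they had been seen. The alternatives were no moderation, a trended robust prior, median centring or quantile normalization of the means, a filter of the lowest 25% of probe sets, p below 5e-07, no 24 h samples and, added after seeing the data, a Welch test. Figures were drawn with matplotlib 3.10.9.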

Additional observations from a re-analysis of the deposited data

How the results depend on the processing

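Direction and call of most results held under the alternatives. Every member kept its direction in the called comparisons. The sign of Tlr7 at 3 h, 0.01 and not called, became -0.028 after median centring. At an unadjusted p below 5e-07, 1 member was called at 24 h. In the steps 1 was called from 1 to 2 h, 1 from 2 to 3 h, 0 from 3 to 6 h and 2 from 6 to 24 h. Of the 54 other pathway probe sets 23 varied by the F-test at this threshold, where 13.5% of all did. For the other comparisons the share of all probe sets was not counted at this threshold, so the drop cannot be tied to the members. The Welch test called 2 members from 1 to 2 h, 1 from 2 to 3 h and 1 from 3 to 6 h, losing Tlr5 and Cd180, Tlr7, and Tlr4 in these steps. From 2 to 3 h 1 member was called without moderation and 1 without the 24 h samples, Tlr7 being lost in both. The cause was not tested. Counts of members against 0 h at 1, 2, 3 and 6 h stayed within 1.5 times the main count under all alternatives. Median centring moved the members' changes from 0 h by at most 0.05 in size and quantile normalization by at most 0.10.

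No paired analysis was possible because the single-array columns carry no rat number, and for the same reason no replicate was left out and no batch was tested. Taking the lower probe set of a symbol had no effect on the members, which have 1 each, and called 45 of the 54 other pathway probe sets by the F-test against 46. How far single spots stood over background was not measured.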
